A study of Mus musculus with 11 samples.

Results

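Receptor genes of innate immune recognition, 10 in number, were followed in the cortex of amyloid-bearing mice with and without Abi3. They comprise the IgG receptors Fcgr1, Fcgr2b and Fcgr3 with their signalling chain Fcer1g, the Toll-like receptors Tlr2, Tlr3, Tlr4 and Tlr7, and the co-receptors Cd14 and Ly86. The genes were chosen by name, with earlier results of these data known. By symbol, 10 of 10 were matched among the 53700 gene identifiers of the count tables. The animals were 11 female 5xFAD mice aged 8 months, 6 with both copies of Abi3 (Abi3+/+) and 5 in which Abi3 was deleted (Abi3-/-). The labels give the strain as C57BL/6, while the study's methods describe a cross of a 5xFAD line of mixed B6SJL origin with a whole-body Abi3 null line. All 11 carried the 5xFAD transgenes, which express human genes bearing familial Alzheimer's disease mutations in neurons from a Thy1 promoter, and the study's methods state that its mice were also heterozygous for a Trem2 variant of the SJL background. No mice without the transgenes were compared here, so every difference is between genotypes of amyloid-bearing animals. Cerebral cortex was profiled by QuantSeq, which reads only the stretch of each mRNA next to its poly(A) tail. Values are normalized counts, that is read counts divided by the DESeq2 size factor of each library.

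Fc gamma receptors bind the constant part of IgG antibodies and let phagocytes take up antibody-coated material. Fcgr1 (the high-affinity receptor) and Fcgr3 are activating and signal through the common gamma chain encoded by Fcer1g, whereas Fcgr2b is the inhibitory receptor. Toll-like receptors recognize molecular patterns: TLR2 binds lipoproteins, TLR4 binds lipopolysaccharide, and TLR3 and TLR7 bind RNA inside endosomes. CD14 hands ligands to TLR2 and TLR4, and the product of Ly86, MD-1, pairs with the TLR4-like receptor CD180. In brain these genes are known mainly from microglia and other macrophages, and several of their products bind aggregated amyloid, although Tlr3 is also described in astrocytes and neurons.

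The promoters are shown for the activating receptors and for the members with the clearest genotype difference in either direction. Each line gives the 250 bases before the annotated start, from RefSeq (GRCm38.p6), and 7 of 10 members had an entry, whereas Tlr4, Tlr7 and Cd14 did not. Fcgr3 had 2 entries, and only the first of them is shown and described. Capitals mark the PU.1 core GAGGAA on either strand (the factor that drives macrophage genes) and the STAT site TTCNNNGAA.
Fcgr1 (chr3:96293970-96294219, minus strand): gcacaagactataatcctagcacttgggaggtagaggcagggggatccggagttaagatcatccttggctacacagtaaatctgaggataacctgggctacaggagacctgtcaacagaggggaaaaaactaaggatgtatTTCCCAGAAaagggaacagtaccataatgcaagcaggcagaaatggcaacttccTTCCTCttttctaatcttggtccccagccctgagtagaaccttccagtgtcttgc
Fcgr3 (chr1:171059404-171059653, minus strand): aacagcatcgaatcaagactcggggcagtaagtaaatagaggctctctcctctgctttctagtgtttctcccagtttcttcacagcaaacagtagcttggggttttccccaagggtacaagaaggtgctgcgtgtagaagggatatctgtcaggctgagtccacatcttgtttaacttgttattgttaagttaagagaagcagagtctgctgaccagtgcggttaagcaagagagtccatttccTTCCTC
Fcer1g (chr1:171234350-171234599, minus strand): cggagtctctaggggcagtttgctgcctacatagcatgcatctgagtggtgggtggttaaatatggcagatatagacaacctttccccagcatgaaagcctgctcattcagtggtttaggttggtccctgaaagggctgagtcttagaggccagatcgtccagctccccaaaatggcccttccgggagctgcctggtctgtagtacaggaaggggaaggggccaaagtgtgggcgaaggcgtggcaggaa
Tlr3 (chr8:45410381-45410630, minus strand): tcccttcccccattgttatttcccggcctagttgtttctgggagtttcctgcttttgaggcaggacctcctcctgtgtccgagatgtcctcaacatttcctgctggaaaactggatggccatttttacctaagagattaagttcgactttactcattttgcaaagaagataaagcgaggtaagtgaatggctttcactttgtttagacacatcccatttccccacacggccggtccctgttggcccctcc
In Fcgr1 the STAT letters lie 109 to 101 bases and the PU.1 core 55 to 50 bases before the start, and in Fcgr3 the PU.1 core occupies bases 6 to 1 before the start. Both PU.1 cores are on the strand opposite to the gene. The other 5 members with an entry held neither motif in this window, and the letters of the interferon-stimulated response element, which IRF factors bind, were found in 0 of 7. Among all 32851 promoters in the table, 23.3% held the PU.1 core, 7.02% the STAT letters and 2.98% the interferon-response letters within the same length, so the PU.1 core is a common string. The matches describe sequence only.

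The labels were checked first on the deleted gene. Raw Abi3 counts were 10 to 38 in Abi3+/+ and 0 to 2 in Abi3-/- animals. Microglial markers were present in every library, with a summed level of 2505 to 3419 normalized counts in Abi3+/+ and 2721 to 3822 in Abi3-/- cortices over 15 of 15 genes tested. Libraries held 3307854 to 5501958 reads in genes in Abi3+/+ and 3202310 to 3933819 in Abi3-/- animals (exact permutation test, two-sided, p = 0.130). Libraries differed by genotype in 2 of 3 measures. Genes with a read numbered 18057 to 19024 in Abi3+/+ and 17535 to 18177 in Abi3-/- libraries (exact permutation test, two-sided, p = 0.0130; 0.0195 adjusted over the 3 measures). Reads outside annotated genes numbered 59.3 to 68.8 per 100 reads in genes in Abi3+/+ and 49.8 to 62.5 in Abi3-/- libraries (p = 0.00866 by this exact test; 0.0195 adjusted likewise). The part of either measure in the results below was not tested beyond the fits with reads outside genes as a covariate, which are given below.

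DESeq2 was fitted over all genes, and of the 17626 tested it called 0.539% at an adjusted p at or below 0.05. All 10 members passed the filter on low counts and 0 of 10 passed this threshold, nor did any with edgeR or limma. DESeq2 gave an adjusted p only to Fcer1g, the other members having a mean below the 70.4 normalized counts under which it assigns none; with that filtering switched off the adjusted p of the 10 members ran from 0.309 to 0.989. At an unadjusted p under 0.05, Fcer1g and Fcgr3 were higher in Abi3-/- cortices, against 4.14% of all genes tested in that direction, and Tlr3 was lower, against 4.44%. Exact permutation tests of the mean normalized counts, two-sided and unadjusted, gave p = 0.0216 for Fcer1g, 0.0390 for Fcgr3 and 0.0476 for Tlr3, and 0.147 to 0.857 for the others, where 0.00433 is the smallest the design allows. Counts of the genotypes overlapped in all 10 members, and 1.04% of all genes tested showed no overlap. The log2 fold change of Abi3-/- against Abi3+/+ was positive in 8 members and negative in Tlr3 and Cd14, with a median of 0.47, beside -0.0033 over all genes tested. Among the 11006 genes tested whose mean lay within the range of the members, 46.4% were higher.

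**Figure D1:**
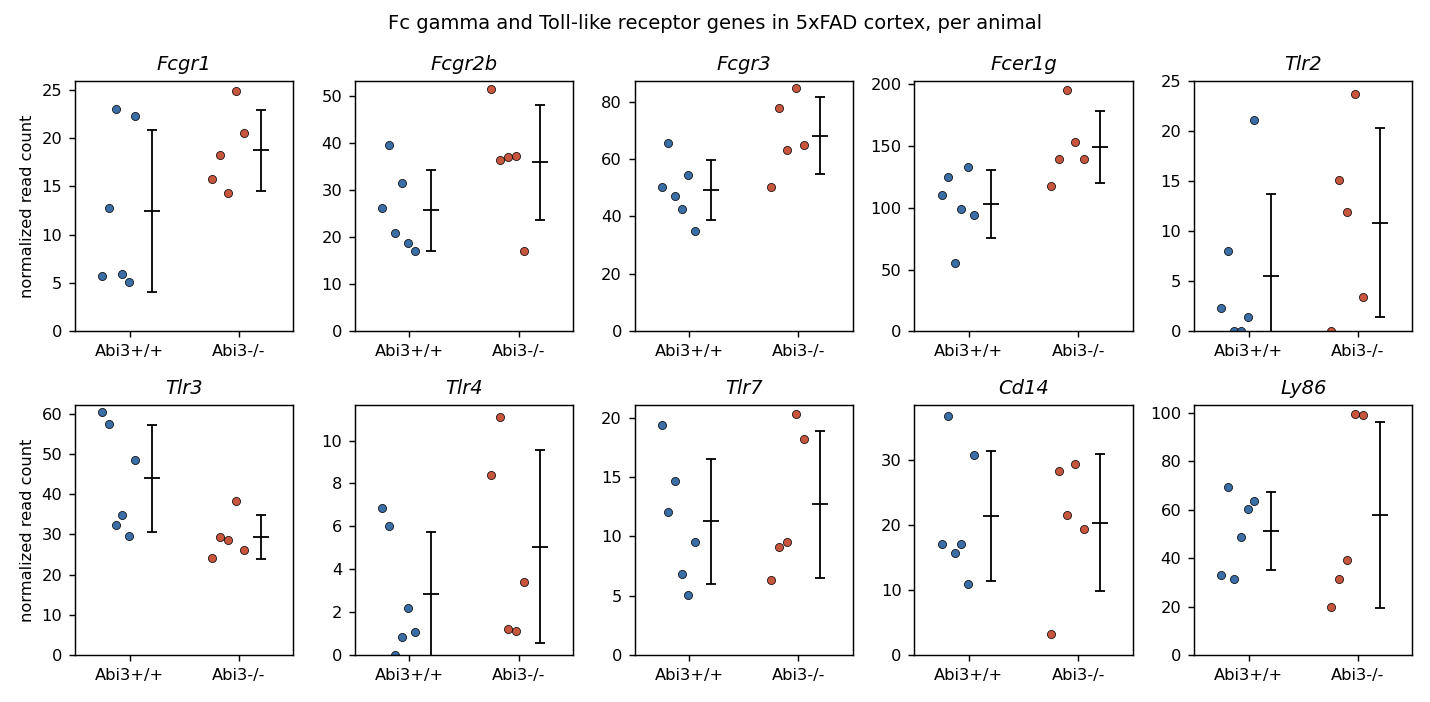
Normalized read counts (y axis) of the 10 genes in each of the 6 Abi3+/+ (blue) and 5 Abi3-/- (red) animals, with the mean and SD of each group beside the points; SD bars that would pass below 0 stop at the axis. Fcer1g, Fcgr3 and Fcgr1 lie above the Abi3+/+ median in all 5 Abi3-/- animals, Tlr3 lies below it in all 5, and every gene overlaps between genotypes.

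Levels were ordered on the scale of 3′ tag counts, in which a transcript yields about 1 fragment whatever its length. Over the 11 animals without regard to genotype the mean normalized count was 124.0 ± 36.1 (SD, n = 11) for Fcer1g, the most abundant member, and 57.8 ± 15.0 (SD, n = 11) for Fcgr3. Fcer1g exceeded Fcgr3 in 11 of 11 animals. Next came Ly86 with a mean of 54.1, Tlr3 with 37.3, Fcgr2b with 30.3, Cd14 with 20.9, Fcgr1 with 15.3, Tlr7 with 11.9, Tlr2 with 7.92 and Tlr4 with 3.84 normalized counts. Apart from the first pair, neighbours in this order differed by less than the larger of their SDs and the order did not hold in 2 to 6 of the 11 animals. The Fc receptor chain was thus the best measured of the genes, whereas Tlr4 rested on 44 reads and Tlr2 on 85 reads in all libraries together.

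The signalling chain was examined first. Fcer1g (ENSMUSG00000058715, chromosome 1, 171057141 to 171062219 in GRCm39) encodes the gamma chain whose immunoreceptor tyrosine-based activation motif passes on the signal of FCGR1 and FCGR3. Abi3+/+ animals had 55.4 to 133 normalized counts with a median of 105, and the 5 Abi3-/- animals had 117, 139, 196, 154 and 140.0. Of the Abi3-/- animals, 4 lay above every Abi3+/+ animal, and the remaining one, replicate 1, lay inside their range. The mean was 102.9 ± 27.7 (SD, n = 6) in Abi3+/+ and 149 ± 29.1 (SD, n = 5) in Abi3-/- cortices, a 1.44-fold difference (95% interval 1.11 to 1.88). DESeq2 gave a log2 fold change of 0.53 (SE 0.195) with an adjusted p of 0.173, so Fcer1g did not pass. Omitting any single animal left its unadjusted p under 0.05 in 11 of 11 fits, with log2 fold changes from 0.40 to 0.62.

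Fcgr3 (ENSMUSG00000059498, chromosome 1, 170878738 to 170893549) encodes the low-affinity activating receptor CD16. Counts ran from 34.9 to 65.6 in Abi3+/+ animals with a median of 48.6, and were 50.3, 77.8, 63.3, 84.7 and 64.9 in the 5 Abi3-/- animals. All 5 were above the Abi3+/+ median, and 2 of them above every Abi3+/+ animal. DESeq2 estimated a 1.38-fold difference (95% interval 1.02 to 1.87), a log2 fold change of 0.46 (SE 0.223), and an adjusted p of 0.543 with filtering off. Leaving out 1 animal kept the unadjusted p under 0.05 in 6 of 11 fits.

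Fcgr1 (ENSMUSG00000015947, chromosome 3, 96190225 to 96201338), the receptor CD64, lies apart from the chromosome 1 cluster of the other members. Abi3+/+ animals fell into low values, 5.07 to 12.7 normalized counts in 4 animals, and high values of 23.0 and 22.2 in replicates 3 and 6. The Abi3-/- animals had 15.7, 18.2, 14.3, 24.8 and 20.5, all above those 4 and, but for replicate 4, below the other pair. The spread was accordingly wider in Abi3+/+ (SD 8.35, n = 6) than in Abi3-/- animals (SD 4.16, n = 5), around means of 12.4 and 18.7. Its log2 fold change was 0.60 (SE 0.464), with a 95% interval of the fold from 0.810 to 2.85 and a DESeq2 adjusted p of 0.804 with filtering off.

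The inhibitory receptor went the same way. Fcgr2b (ENSMUSG00000026656, chromosome 1, 170786186 to 170804177) encodes CD32B, which carries an inhibitory motif and recruits the phosphatase SHIP1. Normalized counts were 16.9 to 39.5 with a median of 23.6 in Abi3+/+ animals, and 51.4, 36.4, 37.0, 37.3 and 17.1 in Abi3-/- animals. Replicate 5 of the Abi3-/- group was near the bottom of the whole range, above replicate 6 of Abi3+/+ only, while the other 4 were above the Abi3+/+ median. DESeq2 gave a log2 fold change of 0.47 (SE 0.327) and an adjusted p of 0.764 with filtering off. It fell to 0.31 without Abi3-/- replicate 1 and rose to 0.65 without replicate 5. The unadjusted p was under 0.05 in 1 of the 11 fits that left out an animal.

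Counted together, the 4 Fc receptor genes had a positive log2 fold change in 4 of 4, between 0.46 and 0.60 with a median of 0.50, and kept that sign in each of the 21 alternatives that were run. Their summed level was 146 to 243 normalized counts in Abi3+/+ and 235 to 310.4 in Abi3-/- cortices. Replicate 2 of Abi3+/+, at 243, was above replicates 1 and 5 of Abi3-/-, and the other Abi3+/+ animals were below all 5 Abi3-/- animals. The balance of activating to inhibitory receptors did not separate the genotypes. Fcgr1 and Fcgr3 reads per Fcgr2b read averaged 2.59 ± 0.799 (SD, n = 6) in Abi3+/+ and 2.79 ± 1.38 (SD, n = 5) in Abi3-/- animals, and the highest ratio, 5.00, belonged to Abi3-/- replicate 5, in which Fcgr2b was low. Likewise Fcer1g reads per summed Fcgr1 and Fcgr3 read were 1.72 ± 0.515 (SD, n = 6) and 1.76 ± 0.453 (SD, n = 5).

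Fcgr2b, Fcgr4, Fcgr3 and Fcer1g lie in this order within 276 kb of chromosome 1, with gaps of 42.3, 21.4 and 164 kb between them. Transcripts of Fcgr2b and Fcgr3 share a stretch of 512 bases with 96.3% identity and 19 mismatches, 2645 bases before the end of the Fcgr2b transcript and 684 bases before the end of the Fcgr3 transcript. None of it lies in the last 500 bases, where most QuantSeq reads fall. Reads were counted by strand, and a long non-coding gene, Gm38204, overlaps Fcgr2b on the other strand. On the same strand, the microRNA gene Mir6546 overlaps Fcgr3 by 62 bases. In the more recent annotation a long non-coding gene on the same strand, Gm71631, covers all 5079 bases of Fcer1g. It is not among the identifiers counted, so any of its reads within Fcer1g exons would stand in the Fcer1g count. Fcgr4, the remaining activating receptor of the cluster, had 21 reads in all 11 libraries, with 1.02 and 2.79 normalized counts on average in Abi3+/+ and Abi3-/- cortices. Of 9 further Fc receptor genes listed, Fcgr4 included, 8 were matched by symbol and 3 were tested, and 0 passed. Fcgrt, the neonatal receptor that recycles IgG, had a log2 fold change of 0.29 (SE 0.277), and Fcer1a, Fcer2a and Fcamr had no read.

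Among the Toll-like receptors, Tlr3 stood apart in level and direction. Tlr3 (ENSMUSG00000031639, chromosome 8, 45848702 to 45864117) encodes the endosomal receptor for double-stranded RNA, which signals through TRIF. Abi3+/+ animals had 29.7 to 60.5 normalized counts with a median of 41.8, and the Abi3-/- animals had 24.1, 29.3, 28.6, 38.4 and 26.2. In the Abi3-/- group 4 animals were below every Abi3+/+ animal, and replicate 4 lay within their range. The means were 44.0 ± 13.4 (SD, n = 6) and 29.3 ± 5.47 (SD, n = 5), or 0.668-fold (95% interval 0.455 to 0.981). DESeq2 gave a log2 fold change of -0.58 (SE 0.283) with an adjusted p of 0.547 with filtering off. Leaving out each animal in turn kept the unadjusted p under 0.05 in 4 of 11 fits.

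Reads outside genes were set beside Tlr3. The Abi3-/- library with the most such reads, replicate 4 with 62.5 per 100 reads in genes, also had the highest Tlr3 of its group. That was not particular to Tlr3, since the same library was the highest of its group in Fcgr1, Fcgr3, Tlr2, Tlr7, Cd14 and Ly86. With reads outside genes as a covariate the log2 fold change of Tlr3 was 0.0067. For Fcer1g, Fcgr3, Fcgr2b and Fcgr1 the same fit gave 0.90, 0.54, 0.71 and 0.44, and for Tlr7 0.56. In that fit 0 of 10 members passed. The genotype and this library measure cannot be fully told apart in these 11 animals. A long non-coding gene, Gm45542, overlaps Tlr3 on the opposite strand by 698 bases.

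Tlr7 (ENSMUSG00000044583, chromosome X, 166086758 to 166113605), the endosomal receptor for single-stranded RNA, had 5.07 to 19.4 normalized counts with a median of 10.8 in Abi3+/+ animals. The Abi3-/- animals split into 6.29, 9.09 and 9.55 in replicates 1 to 3 and 20.3 and 18.2 in replicates 4 and 5. Both genotypes covered nearly the same range, and the log2 fold change was 0.19 (SE 0.491; 95% interval of the fold 0.585 to 2.22). The last 500 bases of the Tlr7 transcript share sequence at 90% identity or more with 47 other genes, so its count is uncertain.

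Tlr2 and Tlr4, the receptors for lipoproteins and lipopolysaccharide at the cell surface, were near the limit of detection. Tlr2 (ENSMUSG00000027995, chromosome 3, 83743576 to 83749074) had no read in 2 Abi3+/+ animals and 21.2 normalized counts in another, with a median of 1.87. In Abi3-/- animals it had 0, 15.2, 11.9, 23.7 and 3.41. Its dispersion exceeded that of 99.4% of genes with a mean within 2-fold of its own, and the 95% interval of the fold ran from 0.321 to 12.2. The log2 fold change of 0.99 (SE 1.34) depended on single animals, at 2.15 without Abi3+/+ replicate 6 and 0.48 without Abi3-/- replicate 4. Tlr4 (ENSMUSG00000039005, chromosome 4, 66745783 to 66849936) had 0 to 6.85 normalized counts with a median of 1.62 in Abi3+/+ animals, and 8.39, 11.1, 1.19, 1.13 and 3.41 in Abi3-/- animals. It had 3 reads or fewer in 7 of 11 libraries, where 3 reads are taken as the least that can be told from none, and no difference was detectable at this depth. The recent annotation adds Gm57137 and Gm68947, which overlap Tlr4 on the same strand by 1557 and 752 bases and are not among the identifiers counted.

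The co-receptors come last. Cd14 (ENSMUSG00000051439, chromosome 18, 36858120 to 36859851) had 10.9 to 36.8 normalized counts with a median of 17.1 in Abi3+/+ animals, and 3.15, 28.3, 21.5, 29.4 and 19.3 in Abi3-/- animals. Replicate 1 of the Abi3-/- group was the lowest of all 11, on 3 reads, and without it the log2 fold change went from -0.08 (SE 0.448) to 0.20. Ly86 (ENSMUSG00000021423, chromosome 13, 37529184 to 37603012), encoding MD-1, had 31.4 to 69.6 normalized counts with a median of 54.3 in Abi3+/+ animals. In the Abi3-/- group it had 19.9, 31.3, 39.4, 99.4 and 99.0, so that 2 animals lay above and 2 below the whole Abi3+/+ range. The group means were 51.0 and 57.8, and the log2 fold change was 0.17 (SE 0.354; 95% interval of the fold 0.696 to 1.82). Leaving out replicate 4 or 5 of the Abi3-/- group turned it to -0.12 or -0.11. With reads outside genes as a covariate it was 0.94.

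**Figure D2:**
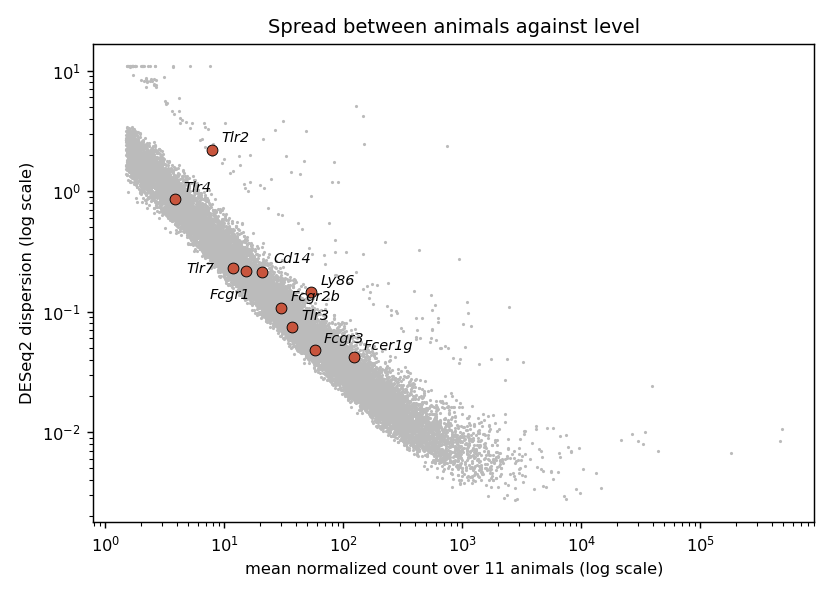
DESeq2 dispersion (y axis, log scale), a measure of spread between animals within a genotype, against the mean normalized count over 11 animals (x axis, log scale) for all 17626 genes tested (grey) and the 10 genes described (red). Tlr2 and Ly86 lie above most genes of like level, whereas Fcgr3, Tlr3 and Tlr7 lie inside the main band.

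Spread within a genotype was compared with that of genes of like level. The dispersion of Ly86, 0.146, exceeded that of 96.7% of the 5208 genes whose mean was within 2-fold of its own, where the median was 0.0610. The ranks were 75.7% for Cd14 and 74.5% for Fcer1g, and lay between 35.3% for Fcgr3 and 55.2% for Fcgr2b in the others apart from Tlr2. The high Ly86 values of Abi3-/- replicates 4 and 5 came from the same animals as the high Tlr7 values. Ly86 reads per read of Cd180, the gene of the MD-1 partner, were 2.00 and 3.95 in them, within the Abi3+/+ range of 0.935 to 5.18.

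Bulk cortex cannot tell more cells of a type from more RNA per cell, so the members were set beside the microglial markers of the same library. Of the 15 markers, 0 passed the threshold in DESeq2 and 11 had a positive log2 fold change, with a median of 0.18. C1qa (a complement subunit) and Laptm5 (a lysosomal membrane protein) had an unadjusted p under 0.05 and log2 fold changes of 0.47 and 0.44. Aif1 (the actin-binding protein IBA1) and the receptor Gpr34 had 0.49 and 0.38, with unadjusted p-values above 0.05. The 4 Fc receptor genes gave 5.54 to 7.90 reads per 100 marker reads in Abi3+/+ with a median of 6.87, and 8.63, 8.61, 10.01, 7.86 and 7.63 in Abi3-/- animals. In the Abi3-/- group 3 animals were above every Abi3+/+ animal and all 5 above their median. The 4 Toll-like receptors gave 2.22 ± 0.705 (SD, n = 6) and 1.79 ± 0.319 (SD, n = 5) per 100 marker reads.

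Per marker read, Tlr3 was the only member whose genotypes did not overlap. It had 10.5 to 19.1 reads per 1000 marker reads in Abi3+/+ with a median of 15.8, and 8.86, 9.28, 9.24, 10.05 and 8.24 in Abi3-/- animals. On this scale 1.25% of all genes tested showed no overlap, 211 of them lower and 10 higher in Abi3-/- cortices; the summed markers averaged 2836 normalized counts in Abi3+/+ and 3195 in Abi3-/- animals. With the summed markers as a covariate in DESeq2, the log2 fold changes of Fcer1g, Fcgr3, Fcgr2b and Fcgr1 were 0.39, 0.23, 0.47 and 0.73, and that of Tlr3 was -0.84 (SE 0.309). In this fit 0 of 10 members passed, Fcer1g and Fcgr3 no longer had an unadjusted p under 0.05 (DESeq2, 0.0785 and 0.339), and Tlr7 and Ly86 turned negative, at -0.31 and -0.27.

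**Figure D3:**
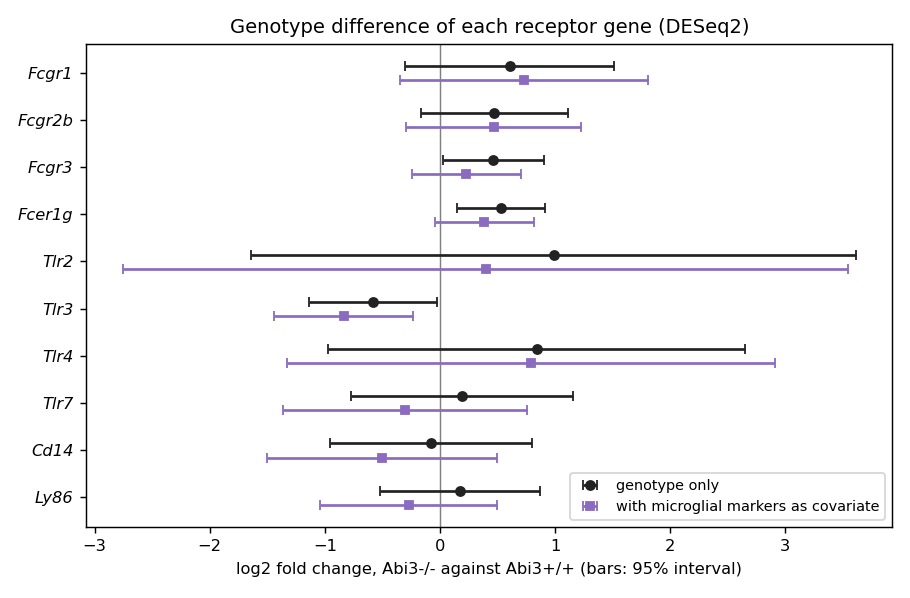
Log2 fold change of Abi3-/- against Abi3+/+ (x axis) for each of the 10 genes, from DESeq2 with genotype alone (black circles) and with summed microglial markers as a covariate (purple squares); bars are 95% intervals. The 4 Fc receptor genes are right of 0 in both fits, Tlr3 is left of 0 in both, and the intervals of Tlr2 and Tlr4 span several log2 units.

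**Figure D4:**
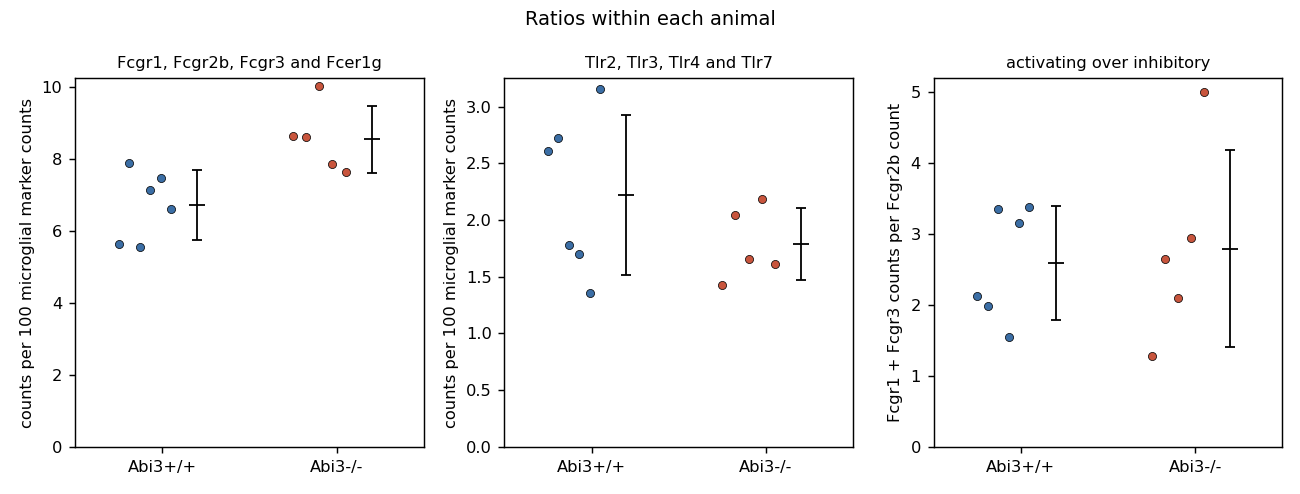
Ratios of raw counts within each of the 6 Abi3+/+ (blue) and 5 Abi3-/- (red) animals, with mean and SD: the 4 Fc receptor genes (left) and the 4 Toll-like receptor genes (middle) per 100 microglial marker counts, and Fcgr1 plus Fcgr3 per Fcgr2b count (right). Fc receptor counts per marker lie at 5.54 to 7.90 in Abi3+/+ and 7.63 to 10.01 in Abi3-/- animals, while the other panels overlap widely.

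Other phagocytes and blood cells that carry these receptors were looked for by their markers. Border-associated macrophage genes were low, with a summed level of 24.6 to 56.2 normalized counts over 8 genes in Abi3+/+ and 44.0 to 68.3 in Abi3-/- cortices, and 7 of 8 had a positive log2 fold change that did not pass. Their part in the Fc receptor difference was not tested. Of 7 neutrophil and 11 lymphocyte markers none reached the filter on low counts; the neutrophil genes S100a8 and Cxcr2, and the B cell and natural killer cell genes Cd79a, Cd79b, Ms4a1 and Klrb1c, had no read in any library. Median log2 fold changes were -0.10 for 8 astrocyte, -0.09 for 6 endothelial and 0.10 for 8 neuronal markers, and 0 genes of these lists passed, the neuronal genes Stmn2 and Snap25 alone having an unadjusted p under 0.05 (log2 fold changes 0.30 and 0.18). Among 12 markers of disease-associated microglia 6 were positive and 6 negative with a median of 0.05; 0 passed, and Trem2 (0.36) had an unadjusted p under 0.05. Of 5 monocyte markers 2 were tested and 0 passed.

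The signalling genes downstream of the Fc receptors were counted from a list of 31 kinases, adaptors and effectors, of which 30 were tested. None passed the DESeq2 threshold, 22 had a positive log2 fold change and the median was 0.20. Ncf1, encoding the p47phox subunit of the phagocyte NADPH oxidase, had the largest difference among genes with a mean of at least 10. It averaged 31.1 ± 3.68 (SD, n = 6) in Abi3+/+ against 55.1 ± 16.6 (SD, n = 5) in Abi3-/- animals, a log2 fold change of 0.83 (SE 0.255), and with filtering off the DESeq2 adjusted p was 0.153. Blnk, Rac2 and Dock2, an adaptor, a GTPase and its exchange factor, had 0.58, 0.57 and 0.46. Unadjusted p-values under 0.05 were also found for Plcg2, a phospholipase (log2 fold change 1.03), and Tyrobp, the DAP12 adaptor (0.30), which are named after their values were seen. Inpp5d, the gene of the phosphatase SHIP1 on which FCGR2B relies and which is named for that role, had 0.14 (SE 0.288).

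Genes of the Toll-like receptor pathway were counted in the same way. Of 12 accessory genes tested, 8 had a positive and 4 a negative log2 fold change with a median of 0.09, and of 28 adaptors, kinases and transcription factors 15 were positive and 13 negative with a median of 0.0024. Again 0 genes passed. Tab1, which activates the kinase TAK1, had the largest difference of the signalling list at -0.76 (SE 0.359). It averaged 22.1 ± 4.33 (SD, n = 6) in Abi3+/+ against 12.97 ± 2.14 (SD, n = 5) in Abi3-/- animals, and the DESeq2 adjusted p with filtering off was 0.532. The adaptors Tirap and Myd88 had 0.70 and 0.39 and the kinase Irak4 had 0.47. Cnpy3, a chaperone of Toll-like receptors, had -0.35, Cd180 0.30, the membrane protein Lrrc59 0.24 and the integrin Itgb2 -0.16. Lbp, the lipopolysaccharide-binding protein, had -1.47 with an unadjusted p under 0.05 and is named after its values were seen. Ly96, the MD-2 partner of TLR4, had 36 reads in all libraries.

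Transcripts that Toll-like receptor signalling is known to induce were sparse. Of 23 such genes 14 were tested, with 7 higher, 7 lower and 0 past the threshold. Tnf, Cxcl2 and Ifnb1 had no read in any of the 11 libraries, which at 3 reads per library allows up to 0.545 to 0.937 CPM (reads scaled to each library's total) by counting error alone. The inhibitors Nfkbia and Nfkbiz had log2 fold changes of 0.26 and -0.43, the chemokine Ccl3 -0.43 and the cyclooxygenase Ptgs2 0.12. Among the remaining Toll-like receptors, Tlr8, Tlr9 and Tlr11 had no read, and Tlr1, Tlr12 and Tlr13 were tested with 3.32 to 10.9 normalized counts on average in a genotype and did not pass.

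**Figure D5:**
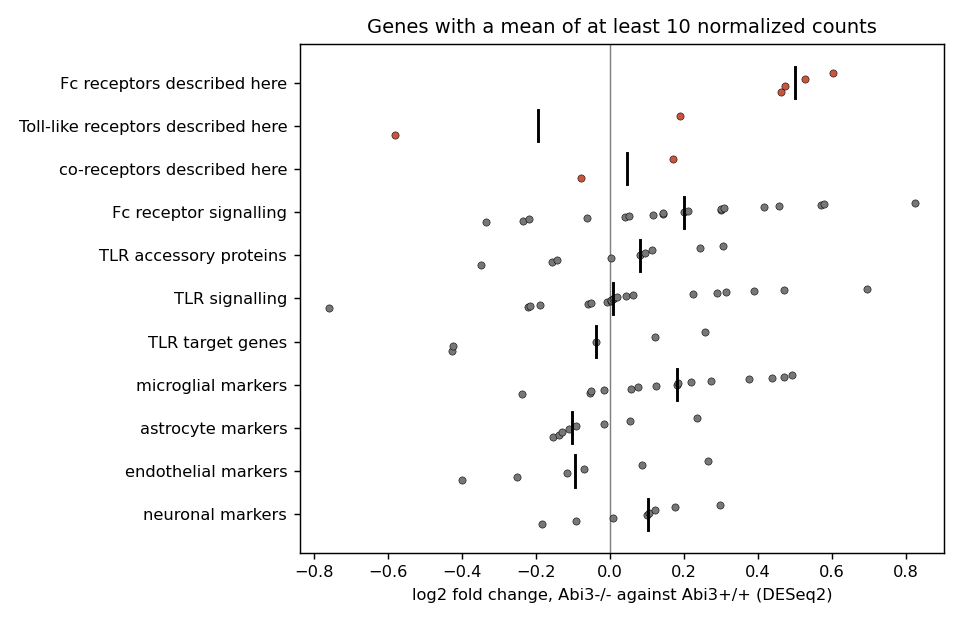
Log2 fold change of Abi3-/- against Abi3+/+ (x axis) for genes with a mean of at least 10 normalized counts in each list (rows); points are genes, red for those described here, and the vertical bar is the median of the row. The 4 Fc receptor genes lie together between 0.46 and 0.60. Over the genes plotted the medians are 0.20 for Fc receptor signalling, 0.18 for microglial markers and 0.0086 for Toll-like receptor signalling.

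Lastly, the genes whose counts varied most like those of the well measured members within genotypes were listed, as the Pearson correlation over 11 animals of log2 normalized counts centred on each genotype mean, among 7779 genes. The genes most like Fcer1g included Kansl1 (r = 0.96) and Smad1 (0.89), those most like Fcgr3 were Rmdn1 (0.90), Mtdh (0.89) and Rsl1d1 (0.89), and those most like Ly86 were Atp9b (0.94), Rundc1 (0.90) and Igfbp2 (0.89). None of these is among the microglial markers. The best placed markers were Cx3cr1 at rank 55 for Fcgr3 (r = 0.74) and 114 for Fcer1g (0.68), and Tmem119 at rank 184 for Ly86 (0.64). Other markers were negative, such as P2ry12 for Fcer1g (-0.27) and for Ly86 (-0.42). Fcer1g and Fcgr3, whose products work together, had r = 0.39, which placed Fcgr3 at rank 937 for Fcer1g. With 11 animals, and all genes read from the same libraries, the top values among so many genes are a description and carry no test.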

How the data were processed

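The deposited values are raw read counts per Ensembl gene for each of the 11 animals, which the authors made by trimming 76-base single-end QuantSeq reads, aligning them to GRCm39 with STAR (version 2.7.3a) and counting by strand with HTSeq (version 0.9.1), as the submitters' processing notes and the study's methods give them. No collapsing of PCR copies is stated, and the floors cover counting error only. The intervals of the fold changes rest on the DESeq2 standard errors, which also take in the spread between animals within a genotype. Gene names and positions came from a more recent GENCODE annotation of the same build, which named 98.0% of the 53700 identifiers.

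The study's own design was kept: DESeq2 (1.42.0, under R 4.3.3) with a single genotype term, genes totalling 10 counts or more in the fit and results limited to base means from 1.5 upward. A gene was called when its p after Benjamini-Hochberg adjustment was 0.05 or less, and independent filtering was set to that level. Single values were compared by two-sided exact permutation tests over all 462 splits of the animals (SciPy version 1.17.1). Alternatives were the edgeR quasi-likelihood test (4.0.16), limma-voom (3.58.1), TMM factors, other filters, the replicate number as a block, 2 covariates and leaving out each animal. Fits were tested on simulated data. Transcripts were compared with BLAST (version 2.17.0) at 90% identity or more.

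The members and gene lists were chosen with earlier results of these data known. Of each list, the genes past the threshold and up to 4 with the largest log2 fold change among those with a mean of at least 10 could be named, and for members with a mean of at least 50 the 3 genes most like them. Samples were taken as separate animals. The authors' reads were not analysed here. A few genes meeting this naming rule are not reported here.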

Additional observations from a re-analysis of the deposited data

How the results depend on the processing

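Under 21 alternatives 0 of the 10 members passed the threshold. Of 208 pairs of a member and an alternative, 196 kept the sign of the log2 fold change; Tlr2 and Tlr4 had no value with only genes of a mean of at least 10. With reads outside genes as a covariate the sign turned in Tlr3 (0.0067), Tlr4 (-0.52) and Cd14 (0.42), with microglial markers as a covariate in Tlr7 (-0.31) and Ly86 (-0.27), and with limma in Ly86 (-0.023). Leaving out 1 animal turned Tlr7 (-0.045 without Abi3-/- replicate 4), Cd14 (0.16, 0.049 and 0.20 without Abi3+/+ replicate 2 or 6 or Abi3-/- replicate 1) and Ly86 (-0.12 and -0.11 without Abi3-/- replicate 4 or 5); over these fits the log2 fold change ran from -0.045 to 0.41 for Tlr7, -0.25 to 0.20 for Cd14 and -0.12 to 0.39 for Ly86. Tlr2 kept its sign but ran from 0.48 to 2.15 without 1 animal, and was 2.16 with the replicate number as a block and 3.51 with reads outside genes as a covariate, against 0.99; none of these passed. The number of genes called over the transcriptome, 95, became 37 with edgeR (23 of them among the 95), 20 with limma (17), 58 once independent filtering was switched off (47 among the 95; 30 higher, against 60 of the 95) and 3 with reads outside genes as a covariate. Omitting single animals gave 46 to 120, falling by over 1.5 times without Abi3+/+ replicate 1 (61) or 6 (48) and Abi3-/- replicate 1 (61), 2 (46) or 5 (47). With the replicate number as a block it was 30, and no member's sign or call changed. In that fit the unadjusted DESeq2 p was 0.174 for Fcgr3 and 0.166 for Tlr3, against 0.0347 for Fcer1g and 0.0433 for Tlr2. Same-numbered animals are different animals and did not deviate together (correlations -0.0048 to 0.066), so the numbers were not taken to pair them. The causes were not tested. Depth limits Tlr2, Tlr4, Tlr7 and Fcgr1 most, at means of 3.84 to 15.3 normalized counts.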
